A study of Danio rerio with 12 samples.

Results

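The question addressed here is where the effect of losing Pbx function on RNA levels differed between the 10 somite and the 18 somite stage of the zebrafish embryo. For each probe set, the difference between Pbx morphants and controls at 10 somites was subtracted from the same difference at 18 somites, on the log2 scale. This stage difference is positive where morphants stood higher, relative to their own controls, at 18 than at 10 somites. All 12 arrays of the series entered the comparison, and 15502 of its 15617 probe sets were tested, the other 115 being the manufacturer's AFFX controls. Whole embryos had received, as 1-2 cell embryos, either morpholinos against both pbx2 and pbx4 (pbx2-MO;pbx4-MO, here Pbx morphants) or a control morpholino (Control MO), which the labels describe in brackets as a pbx2 mutant. A morpholino is a stable antisense molecule used to stop a transcript from being translated or spliced, and every embryo, controls included, carried one. Each of the 4 groups, control and morphant embryos at 10 and at 18 somites, held 3 Affymetrix arrays numbered 1 to 3. Whether the numbered samples were separate clutches or injections is not in the labels, and p-values therefore rest on a spread between samples that may be technical.

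Pbx proteins are homeodomain transcription factors of the TALE class that bind DNA together with Hox, Meis and other partners, and the products of pbx2 and pbx4 act together in the early zebrafish embryo. They are known for their part in giving hindbrain segments their identity and in the differentiation of fast muscle and heart muscle. Over the stages sampled, the hindbrain is already divided into rhombomeres, somites are still being added at the tail, and genes of contractile heart and fast muscle are being switched on.

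Values are log2 signals per probe set, so that a difference of 1 is a 2-fold change. The stages lay on different scales, with array medians of 7.29 to 7.31 at 10 somites and 6.52 to 6.57 at 18 somites. A constant offset cancels in the stage difference, while a difference in spread does not. Interquartile ranges were 3.28 to 3.39 at 10 somites and 3.15 to 3.24 at 18 somites. Each morphant array was set against the control array of its own stage and number, which gave 3 paired differences per stage. Values of single arrays are given in the order of these numbers, and errors after ± are standard errors of the model. Of 16 tissue markers, 14 were measured, and on control arrays 10 of them lay above the range of the tag controls described below at 10 somites and 13 at 18 somites. The markers myod1 and mylpfa (muscle) and myl7 (heart) were in that range at 10 somites, and sox32 (endoderm) was in it at both stages. In whole embryos, fewer cells of a type and less RNA per cell cannot be told apart.

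Most of the Pbx effect did not differ detectably between the stages, and a small number of genes carried the differences that were called. A stage difference was called for 52 of the 15502 probe sets, 0.335% of those tested, at an adjusted p under 0.05 (limma, Benjamini-Hochberg over all probe sets). Of these, 33 (0.213%) had a lower and 19 (0.123%) a higher effect at 18 than at 10 somites. In the same fit, the Pbx effect itself was called for 2040 probe sets (13.2%) at 10 somites, 1079 higher (6.96%) and 961 lower (6.2%) in morphants. At 18 somites it was called for 2809 (18.1%), 1595 higher (10.3%) and 1214 lower (7.83%). With each array set to the same median and interquartile range, the latter split was 1366 higher and 1555 lower. Over all probe sets the effects at the stages, which share no array, correlated with a Pearson r of 0.677. Of the probe sets called at 10 somites, 93.5% had the same sign of effect at 18 somites, and of those called at 18 somites, 90.7% had the same sign at 10 somites, against 69.6% of all probe sets. The median size of the stage difference was 0.0937 over all probe sets, and 94.1% were smaller than 0.3. At an unadjusted p under 0.05 (limma) the stage difference passed for 1786 probe sets (11.5%). Probe sets without a call are therefore not shown to have equal effects at the stages.

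The 52 called stage differences ranged in size from 0.53 to 1.64, with a median of 0.70, and 5 of them were at least 2-fold. The stage difference was negative by that much for the heart genes cmlc1 and myh7 and the unnamed probe set Dr.21935.1.A1_at. It was positive by that much for lcp1 and pnhd, which fell in morphants at both stages. The 3 paired differences of one stage did not overlap those of the other for any of the 52, nor for 2627 of all probe sets (16.9%). An exact two-sided permutation test of 3 against 3 paired differences has 20 arrangements and cannot give a p below 0.1, so the fit across all probe sets is the test used. The platform annotation gave 40 of the 52 a gene symbol, 25 lower and 15 higher, and the other 12 are unnamed here. The count moved with the pairing and with single pairs. It was 18, 12 and 82 without the pair numbered 1, 2 or 3 at 10 somites, 6, 18 and 17 without those at 18 somites, and 5 without the replicate block.

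**Figure D1:**
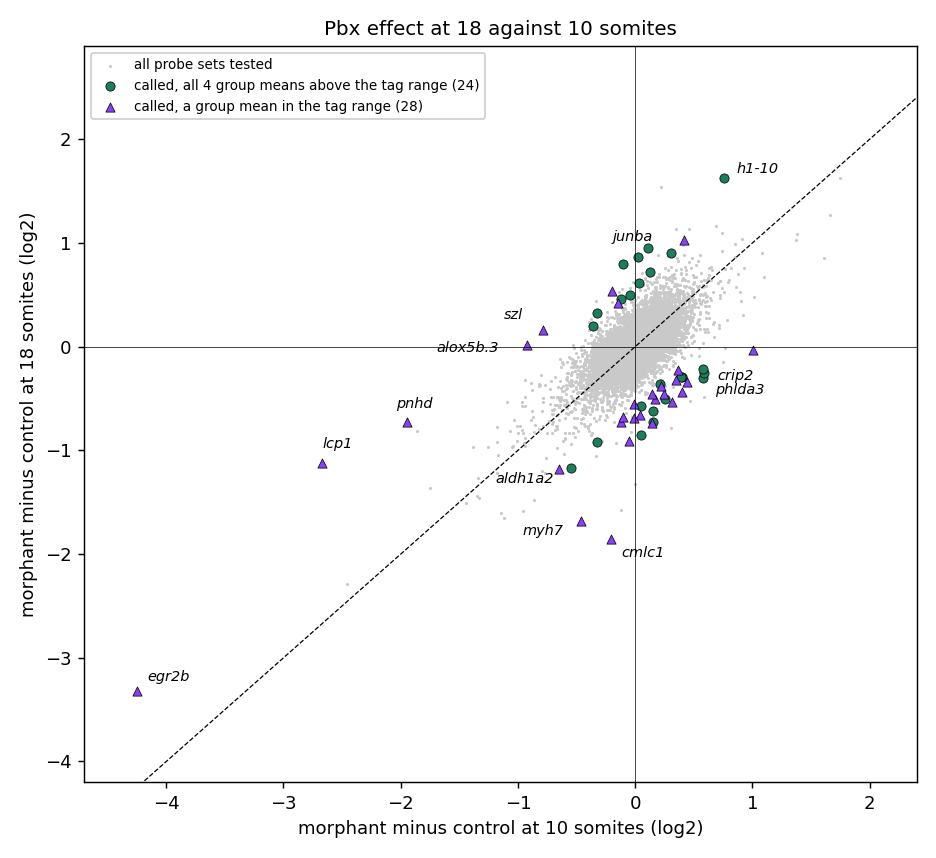
Pbx effect at 18 somites (vertical axis) against that at 10 somites (horizontal axis), both as morphant minus control on the log2 scale, for each of 15502 probe sets (grey) and for the 52 with a called stage difference (green circles where all 4 group means lay above the tag control range, violet triangles where at least 1 lay in it). The dashed line marks equal effects, and cmlc1 and myh7 lie below it while lcp1, pnhd and egr2b, all lower in morphants, lie above it.

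The called stage differences took several shapes. For 27 of the 52, the Pbx effect was called at 18 somites and not at 10 somites, 18 of them lower and 9 higher in morphants. For 7 it was called at 10 somites and not at 18. For 10 it was called at both stages with the same sign, and the size was larger at 18 somites for 7 of these and at 10 somites for egr2b, lcp1 and pnhd. For 8 it was called at both stages with opposite signs. Among all 15502 probe sets, 1137 were called at both stages and 9 of those had opposite signs.

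Of the 52 called differences, 28 (53.8%) involved a signal in the range of the tag controls, against 43.5% of all probe sets tested. The array carries 17 AFFX-r2-Tag probe sets that match no zebrafish transcript by design, and their signals mark what the array reads without a matching transcript. Their highest value on the arrays of a group was 6.68 for controls and 6.58 for morphants at 10 somites, and 5.84 and 5.90 at 18 somites. A group mean at or below that value is called in the range here. For 24 called probe sets no group was in the range. Named genes among them with a negative stage difference were foxo3b, phlda3, crip2, dnaja1, gtpbp1l, igf2a, aldh1a2, ptp4a3a, pprc1 and tra2a. Those with a positive one were zgc:162730, foxb1a, ggctb, histh1l1, tdgf1, junba, h1-10 and zgc:92606. The other 6 were unnamed probe sets.

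For 8 of the 52, all among the 28, all 4 group means were in the range, against 5624 of 15502 probe sets tested (36.3%). These 8 were rspo1, matn4, gadd45aa, c6.2, tnnc1a, ppa1a, Dr.14317.1.A1_at and Dr.18158.1.A1_at. For cmlc1, myh7, otomp, krt1-19e and Dr.21698.1.A1_at the range held both groups at 10 somites and the morphants at 18 somites, so that the controls at 18 somites alone stood above it. For fbp1a and Dr.6848.1.A1_at the morphants at 18 somites alone stood above it. Both groups at 10 somites were in the range for fabp7a, si:ch211-80h18.1 and Dr.15192.1.A1_at, and both groups at 18 somites for isg15 and szl. For lcp1 and alox5b.3 the controls at 10 somites alone stood above the range. The morphants were in it at both stages for egr2b and at 18 somites for taf1c, gbx1 and pnhd, and the controls at 10 somites for slc1a4 and Dr.21935.1.A1_at. With the range taken from the 8 probe sets TagA to TagH, 23 of the 52 involved it, against 36.2% of all probe sets tested.

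When every value below an array's highest tag control was raised to that control, the stage difference shrank by over 1.5 times for 14 of the 40 named genes, all of them among the 22 with a group in the range. With probe sets at or below the tag controls on every array left out of this fit, 25 of the 40 were called, 7 of them with a group in the range. Calls were lost for myh7 (adjusted p = 0.117), taf1c (0.081), isg15 (0.182), otomp (0.421), si:ch211-80h18.1 (0.131), krt1-19e (0.467), gbx1 (0.112), ppa1a (0.982), fbp1a (0.0618) and alox5b.3 (0.244), and the other 5 were not tested. The stage difference became -0.59 for myh7, -0.50 for taf1c, -0.46 for isg15, -0.33 for si:ch211-80h18.1, -0.17 for otomp and krt1-19e, 0.57 for alox5b.3, 0.48 for fbp1a and 0.01 for ppa1a. For rspo1, matn4, gadd45aa, c6.2 and tnnc1a all 12 values lay at or below the tag controls, and what was left (-0.03) was the difference between the tag controls themselves. The stage difference was -1.37 for cmlc1, 2.22 for lcp1, 1.34 for pnhd and 0.85 for egr2b. Only the Control MO mean of the later stage lay above the tag range for cmlc1, and only that of the earlier stage for lcp1. Their values in this fit mostly show how far those Control MO arrays stood above the tag controls. For cmlc1, lcp1 and egr2b, a call kept here therefore cannot tell whether the Pbx effect itself differed.

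Genes of the heart's contractile machinery had the lowest median stage difference of the 31 gene lists examined, -0.44. It was -0.13, and fast muscle was the lowest list, among the brightest 60% of probe sets and among those above the TagA to TagH range. Of 8 measured, 2 fell in morphants at 10 somites and 6 at 18 somites, and none rose. Of all 8793 named genes, 626 fell and 677 rose at 10 somites, and 806 fell and 1024 rose at 18 somites. The lowest stage difference among called probe sets was that of cmlc1, a cardiac myosin light chain. At 10 somites cmlc1 read 5.05, 5.24 and 5.17 on control arrays and 5.02, 4.87 and 4.95 on morphant arrays. Its 18 somite values were 7.33, 7.17 and 6.90 on control arrays and 5.30, 5.05 and 5.49 on morphant arrays. The groups overlapped in neither stage, and the gap at 18 somites was much the wider. The Pbx effect was -0.21 ± 0.12 at 10 somites (adjusted p = 0.266) and -1.85 ± 0.12 at 18 somites (adjusted p = 1.58e-06), a 3.62-fold fall as read. The stage difference was -1.64 ± 0.16 (adjusted p = 0.00341), and its call held without each pair in turn (highest adjusted p = 0.025) and without the block (0.00136). Both groups at 10 somites and the morphants at 18 somites lay in the tag range, which limits how large an effect could be read at either stage.

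The gene annotated as myh7, a myosin heavy chain gene whose synonyms include vmhc of the ventricle, behaved similarly. At 10 somites it read 4.84, 5.29 and 5.20 on control and 4.66, 4.75 and 4.53 on morphant arrays. The 18 somite readings were 6.68, 6.40 and 6.00 on control and 4.71, 4.69 and 4.64 on morphant arrays. Every morphant value was below every control value of its stage, with the wider gap at 18 somites. The effect was -0.47 at 10 somites (adjusted p = 0.0158) and -1.68 at 18 somites (adjusted p = 2.5e-06), and the stage difference -1.21 ± 0.16 (adjusted p = 0.0103) missed the threshold without the pair numbered 1 at 18 somites (adjusted p = 0.0511).

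Of the 8 measured genes, 3 had a called lower effect at 18 somites and none a higher. Of all 8793 named genes, each by its brightest probe set, 24 had a lower and 15 a higher. The list's median stage difference of -0.44 compares with 0.01 over all named genes. It was -0.30 with a gene's probe sets averaged. As 7 of the 8 had a group in the tag range, only a single member, at -0.33, lay above it in all 4 groups. The third, tnnc1a for cardiac troponin C, went from -0.01 at 10 somites to -0.55 at 18 somites, at signals between 3.53 and 4.21 on all 12 arrays, in or below the tag range. Its call was lost without any 1 of the 6 pairs (adjusted p from 0.073 to 0.22). The cardiac myosin light chain gene myl7 differed by -0.76 ± 0.18 and did not pass (adjusted p = 0.109), although it fell at 18 somites (-0.93, adjusted p = 0.000426). It passed without the pair numbered 3 at 18 somites (-1.02, adjusted p = 0.0149). Values for atp2a2a, a calcium pump of the sarcoplasmic reticulum, were -0.12 and -0.45 at 10 and 18 somites, and the stage difference of -0.33 was not called (adjusted p = 0.224). The cardiac troponin T gene tnnt2a ran the other way, from -0.64 to -0.40, with a stage difference of 0.24 that was not called (adjusted p = 0.595). List members named here without a call were chosen after their values were seen.

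**Figure D2:**
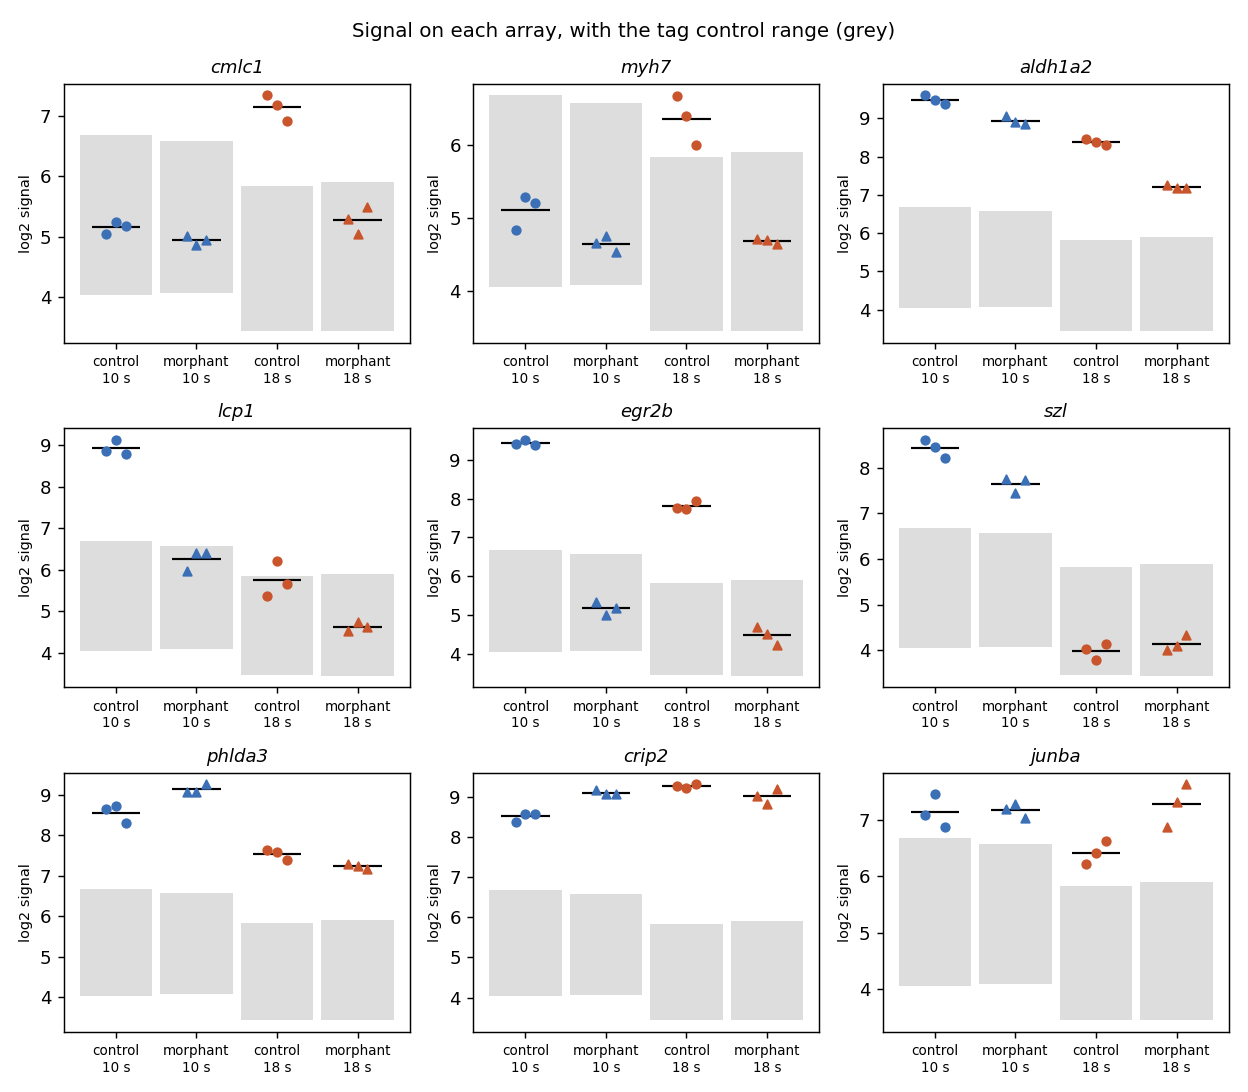
Log2 signal of 9 genes on each of the 12 arrays, by group (points), with the group mean (line) and, in grey, the lowest to highest value of the 17 tag control probe sets on the arrays of that group. For cmlc1 and myh7 the controls at 18 somites alone stand above the grey range, while all groups of phlda3, crip2, aldh1a2 and junba do.

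Among genes of the heart field, of 17 measured, 1 was called higher and none lower, against 15 and 24 of all 8793 named genes. On this list 15 had a positive stage difference, against 4602 of 8793 named genes, and the median was 0.15. The called gene was tdgf1, described further on. The heart field factor hand2 rose at both stages, by 0.42 and 0.77 at 10 and 18 somites, and its stage difference of 0.34 was not called (adjusted p = 0.228). Values of nkx2.5, a homeobox gene of heart precursors, were -0.17 and 0.10, at signals in the tag range in all groups.

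Fast muscle genes showed no called stage difference, although several fell at 18 somites. The fast myosin heavy chain gene myhz1.3 read 3.92, 4.2 and 4.34 on control and 3.93, 4.13 and 4.05 on morphant arrays at 10 somites, where all values were in or below the tag range. At 18 somites the controls read 8.13, 8.14 and 8.12 and the morphants 6.64, 5.62 and 7.38. The control values at 18 somites were nearly equal, while the morphant values were spread widely, and all lay below the controls. The stage difference of myhz1.3 was large, -1.46 ± 0.31, yet its adjusted p was 0.0831. It passed without the pair numbered 3 at 18 somites (-1.88, adjusted p = 0.0245), which had the smallest fall. It also passed with the same median and interquartile range on each array (0.0398), with array weights (0.0271) and with an intensity trend (0.0222). With values raised to the tag controls it passed too (0.0345 without probe sets at or below them on every array). Both groups at 10 somites were then at the tag controls, so that fit in effect reads the fall at 18 somites alone. The regulatory light chain gene mylpfa gave -0.28 at 10 somites and -0.91 at 18 somites, with a stage difference of -0.62 ± 0.21 (adjusted p = 0.257), or -0.36 without the pair numbered 2 at 18 somites. For atp2a1, the calcium pump of fast fibres, it was -0.42 ± 0.19 (adjusted p = 0.429), and -0.13 without that pair. Both groups at 10 somites were in the tag range for mylpfa and for atp2a1, which limits the effect as read there. Of 23 measured genes on the fast muscle list none passed. At 18 somites 8 fell and none rose, against 806 and 1024 of all 8793 named genes. The median stage difference was -0.17, between -0.25 and -0.05 with a pair left out. Of the 23 genes, 14 had a group in the tag range, and the median of the others was -0.21.

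The myogenic regulators upstream of these genes were not called either. The stage difference was 0.33 ± 0.20 for myog (adjusted p = 0.58), 0.12 ± 0.11 for myod1 (adjusted p = 0.731) and 0.48 ± 0.15 for myf5 (adjusted p = 0.224). Without the pair numbered 3 at 10 somites that of myog was 0.01. The slow myosin gene smyhc1 had effects of 0.14 and 0.17 at 10 and 18 somites, neither of them called, and a stage difference of 0.03 ± 0.10, whose sign turned without the pair numbered 3 of either stage.

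In the hindbrain, egr2b and gbx1 differed between the stages in opposite directions, and no other gene of the hindbrain list passed. The zinc finger gene egr2b marks rhombomeres 3 and 5. At 10 somites it read 9.4, 9.51 and 9.38 on control and 5.34, 5.01 and 5.20 on morphant arrays. At 18 somites it read 7.75, 7.73 and 7.95 on control and 4.70, 4.52 and 4.24 on morphant arrays. Control and morphant values stood far apart at both stages, and the morphants lay in the tag range at both. The effect was -4.25 at 10 somites and -3.32 at 18 somites, 19-fold and 10-fold falls, and the stage difference was 0.93 ± 0.16 (adjusted p = 0.0391). With the morphants in the range, the array can limit how large a fall it shows. With values raised to the tag controls the stage difference was 0.85 (adjusted p = 0.000938 without probe sets at or below them on every array). All morphant values were then at the tag controls. That fit therefore shows how far the Control MO arrays stood above them, and cannot tell whether the Pbx effect itself differed. The controls, measured from the median of their arrays, were lower at 18 than at 10 somites (a change of -0.86). Whether either bears on the stage difference was not tested. The call was lost without 4 of the 6 pairs, with an adjusted p of 0.167 without the pair numbered 2 at 10 somites. It also depended on the scaling of the arrays. The call held with median centring (0.91, adjusted p = 0.0406). It was lost with quantile normalization (0.73, adjusted p = 0.106) and with the same median and interquartile range on each array (0.75, adjusted p = 0.0719). Without the replicate block the adjusted p was 0.0571. Of 17 other settings in which egr2b was tested, 8 gave a call.

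The homeobox gene gbx1 of the anterior hindbrain fell further at 18 somites. Its controls read 7.68, 7.71 and 7.92 and its morphants 7.0, 7.0 and 7.37 at 10 somites. At 18 somites the controls read 6.71, 7.0 and 6.81 and the morphants 5.64, 5.73 and 5.62, in the tag range. Morphant values lay below control values at both stages. The effect went from -0.65 to -1.18, and the stage difference of -0.53 ± 0.10 (adjusted p = 0.0431) missed the threshold without any 1 of the 6 pairs (adjusted p from 0.0826 to 0.152).

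Of 31 measured genes on the hindbrain list, 26 had a positive stage difference, against 4602 of 8793 named genes, and the median was 0.10. The effect fell for 16 and rose for 1 at 10 somites, and fell for 11 and rose for 2 at 18 somites, where 626 and 677 of all named genes fell and rose at 10 somites and 806 and 1024 at 18 somites. Several Hox genes of the hindbrain fell at both stages. The rhombomere 4 gene hoxb1a gave -1.04 and -0.96, with a stage difference of 0.09 ± 0.14 whose sign turned without the pair numbered 1 of either stage (-0.04 and -0.02). The Hox gene hoxa2b of the anterior hindbrain gave -0.97 and -0.81 (0.16 ± 0.11, adjusted p = 0.644), and hoxa3a gave -1.05 and -0.97 (0.08 ± 0.10, adjusted p = 0.822). The nearest to a call among the rest was hnf1bb, a homeobox gene of the caudal hindbrain, with -0.24 at 10 somites and 0.33 at 18 somites, where both groups were in the tag range (0.57 ± 0.12, adjusted p = 0.0705).

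The gene for the main enzyme of retinoic acid synthesis, aldh1a2, fell more at 18 somites, at signals above the tag range in every group. At 10 somites its controls were at 9.6, 9.47 and 9.39 and its morphants at 9.06, 8.89 and 8.86. The values at 18 somites were 8.47, 8.39 and 8.30 for controls and 7.27, 7.19 and 7.18 for morphants. The groups did not overlap at either stage, and the paired differences were close to each other within a stage. The effect was -0.55 at 10 somites (adjusted p = 0.000184) and -1.17 at 18 somites (adjusted p = 6.49e-07), 1.46-fold and 2.26-fold falls. The stage difference of -0.63 ± 0.09 (adjusted p = 0.0131) had adjusted p-values from 0.0222 to 0.0675 with a pair left out, and passed without the pair numbered 3 of either stage. Of 18 measured genes on the retinoic acid list no other was called, and the median was 0.05. The degrading enzyme cyp26b1 fell at both stages, by 1.33 and by 1.46, with a stage difference of -0.12 ± 0.12 (adjusted p = 0.761), which was -0.01 without the pair numbered 3 at 10 somites and -0.23 without the pair numbered 1 at 18 somites. Its other 3 probe sets gave stage differences of 0.04, 0.17 and 0.17, none called. The binding protein gene crabp2a gave 0.25 and -0.38, a stage difference of -0.63 ± 0.16 that was not called (adjusted p = 0.152).

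The highest stage difference among called probe sets was that of lcp1, which encodes the actin-bundling protein L-plastin of leukocytes. At 10 somites lcp1 read 8.87, 9.13 and 8.79 on control and 5.97, 6.41 and 6.41 on morphant arrays. The 18 somite readings were 5.36, 6.21 and 5.66 on control and 4.52, 4.74 and 4.61 on morphant arrays. Morphant values were below control values at both stages, and the controls, measured from the median of their arrays, were lower at 18 than at 10 somites (a change of -2.42). The fall was 6.37-fold at 10 somites (-2.67, adjusted p = 6.53e-08) and 2.17-fold at 18 somites (-1.12, adjusted p = 6.26e-05). The stage difference was 1.55 ± 0.16 (adjusted p = 0.00341), and its call held without each pair in turn (highest adjusted p = 0.0263). Without the replicate block lcp1 just missed the threshold (adjusted p = 0.05). All groups but the controls at 10 somites lay in the tag range, so both falls end in it and that at 18 somites also started in it, which limits their size as read. Of 24 measured genes on the blood list no other was called, 17 had a positive stage difference, against 4602 of 8793 named genes, and the median was 0.13. The embryonic globin genes hbae3 and hbbe3 had stage differences of 0.07 each, and spi1b, a transcription factor of the myeloid lineage, had 0.33 (adjusted p = 0.321).

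Other genes had their larger, or their only called, Pbx effect at 10 somites. The gene pnhd, which encodes the secreted protein pinhead, read 9.22, 8.54 and 8.28 on control and 6.81, 6.65 and 6.75 on morphant arrays at 10 somites, followed at 18 somites by 6.53, 6.20 and 6.43 against 5.70, 5.64 and 5.64. It fell at both stages, 3.85-fold and 1.66-fold as read, the latter with morphants in the tag range, which limits the size of the fall. It had a stage difference of 1.22 ± 0.18 (adjusted p = 0.0139). The sizzled gene szl, which encodes a secreted inhibitor of Chordin breakdown in the ventral embryo, read 8.61, 8.45 and 8.22 against 7.75, 7.46 and 7.72 at 10 somites. At 18 somites szl was in the tag range in both groups, with 4.03, 3.78 and 4.14 against 4.01, 4.1 and 4.33, and these overlapped. Its effect was -0.78 and 0.16, and the stage difference 0.95 ± 0.13 (adjusted p = 0.0131).

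The lipoxygenase gene alox5b.3 read 8.0, 6.91 and 6.68 on control and 6.73, 5.95 and 6.14 on morphant arrays at 10 somites. The array numbered 1 was the highest in both groups, and the groups overlapped although every paired difference was negative. At 18 somites all 6 values lay between 3.20 and 3.61, in or below the tag range. The stage difference was 0.95 ± 0.16 (adjusted p = 0.0391). Without the pair numbered 2 at 10 somites the adjusted p was 0.0592 for pnhd, 0.0598 for szl and 0.153 for alox5b.3. In all, the call was lost without 4 of the 6 pairs for pnhd and for szl, and without 5 for alox5b.3. The forkhead gene foxb1a of the neural tube, bright in all groups, fell by 0.36 at 10 somites and had an effect of 0.20 at 18 somites that was not called (adjusted p = 0.0555), a stage difference of 0.55 ± 0.09 (adjusted p = 0.034).

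For 8 probe sets, all of them named, the effect was called at both stages with opposite signs, higher in morphants at 10 somites and lower at 18 somites for 7 and the reverse for tdgf1. The LIM domain gene crip2 read 8.38, 8.57 and 8.57 on control and 9.15, 9.07 and 9.07 on morphant arrays at 10 somites. Its 18 somite values were 9.26, 9.22 and 9.30 on control and 9.01, 8.81 and 9.20 on morphant arrays. Morphants were above all controls at 10 somites and below all controls at 18 somites, all above the tag range. The effect was 0.59 (adjusted p = 0.000577) and -0.25 (adjusted p = 0.0434), and the stage difference -0.84 ± 0.11 (adjusted p = 0.0103) missed the threshold without the pair numbered 1 at 18 somites (adjusted p = 0.0667).

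Both gtpbp1l, a gene for a GTP-binding protein, and igf2a, for an insulin-like growth factor, were also above the tag range throughout. The first read 7.86, 7.90 and 7.96 against 8.20, 8.31 and 8.42 at 10 somites, followed at 18 somites by 7.46, 7.45 and 7.28 against 7.18, 7.15 and 6.98. Its effects of 0.40 and -0.29 gave a stage difference of -0.69 ± 0.09 (adjusted p = 0.0103). For igf2a the effects were 0.39 and -0.29 and the stage difference -0.68 ± 0.12 (adjusted p = 0.0425). Its morphant array numbered 2 at 18 somites, at 7.6, overlapped the controls, which lay between 7.55 and 7.72.

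The Nodal coreceptor gene tdgf1, known in zebrafish as one-eyed pinhead, read 8.92, 8.81 and 8.73 on control and 8.66, 8.25 and 8.58 on morphant arrays at 10 somites. At 18 somites the controls read 7.26, 7.36 and 7.65 and the morphants 7.71, 7.70 and 7.83. Morphants were the lower at 10 somites and the higher at 18 somites, without overlap. Effects of -0.32 (adjusted p = 0.0247) and 0.32 (adjusted p = 0.0192) gave a stage difference of 0.65 ± 0.12 (adjusted p = 0.0449), a call lost without 5 of the 6 pairs.

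The other 4 genes with opposite signs involved the tag range. The Wnt agonist gene rspo1 had effects of 0.44 and -0.34, and the matrix protein gene matn4 of 0.25 and -0.46, with all 4 group means of each in the range. Effects were 0.40 and -0.44 for isg15, a ubiquitin-like modifier of the interferon response, which was in the range at 18 somites, and 0.35 and -0.32 for si:ch211-80h18.1, which was in it at 10 somites.

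Some genes that respond to p53 and to cell stress were higher in morphants at 10 somites and not at 18 somites. The pleckstrin homology gene phlda3, a target of p53 in mammals, read 8.64, 8.73 and 8.31 on control and 9.07, 9.08 and 9.25 on morphant arrays at 10 somites. At 18 somites it read 7.64, 7.59 and 7.38 on control and 7.29, 7.25 and 7.17 on morphant arrays. Morphant values lay above all controls at 10 somites and below all controls at 18 somites. The effect was 0.58 at 10 somites (adjusted p = 0.00269) and -0.30 at 18 somites (adjusted p = 0.0507), and the stage difference was -0.88 ± 0.14 (adjusted p = 0.0262). It was lost without any of the pairs at 18 somites (adjusted p from 0.073 to 0.12).

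On the list for p53 and stress, 3 of 21 measured genes were called lower and 1 higher, against 24 and 15 of all 8793 named genes. The former were phlda3, isg15 and gadd45aa, a gene of growth arrest, and the latter was junba. The median stage difference was -0.11, and it was 0.00 without the pair numbered 3 at 10 somites. The effect rose for 7 and fell for 1 at 10 somites, and rose for 6 and fell for 3 at 18 somites, against 677 and 626, then 1024 and 806, of all 8793 named genes. For gadd45aa the effects were 0.14 and -0.45 (stage difference -0.60 ± 0.10, adjusted p = 0.0381), at signals in the tag range in all groups. The initiator caspase gene casp8 rose by 0.77 at 10 somites and had -0.02 at 18 somites, a stage difference of -0.78 ± 0.15 that just missed the threshold (adjusted p = 0.0589). The ubiquitin ligase gene mdm2, which limits p53, rose by 0.40 at 10 somites and had -0.10 at 18 somites (-0.50 ± 0.13, adjusted p = 0.136). Not all went that way: casp9 rose at both stages, by 0.43 and 0.70 (0.27 ± 0.13, adjusted p = 0.453).

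The AP-1 subunit gene junba was higher in morphants at 18 somites. It read 7.09, 7.47 and 6.88 on control and 7.2, 7.29 and 7.04 on morphant arrays at 10 somites, where the groups overlapped. Its 18 somite values were 6.22, 6.41 and 6.63 on control and 6.87, 7.33 and 7.64 on morphant arrays, without overlap. The effects were 0.03 and 0.86, a 1.82-fold rise at 18 somites, and the stage difference was 0.84 ± 0.12 (adjusted p = 0.0139), with an adjusted p of 0.0857 without the pair numbered 2 at 18 somites.

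Other genes had a rise at 18 somites that was larger than at 10 somites or called there alone. The gene zgc:92606, with the synonym gabarapl of the autophagy adaptors, read 8.28, 8.26 and 8.14 on control and 8.22, 7.96 and 8.19 on morphant arrays at 10 somites. The 18 somite readings were 7.07, 7.33 and 7.18 on control and 7.89, 8.07 and 8.02 on morphant arrays. The groups overlapped at 10 somites and stood apart at 18 somites. The effects of -0.10 and 0.80 gave a stage difference of 0.90 ± 0.11 (adjusted p = 0.00925), which held without each pair in turn (highest adjusted p = 0.0475) and without the block (0.0204).

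The linker histone gene h1-10 rose at both stages, 1.69-fold and 3.08-fold, with a stage difference of 0.87 ± 0.14 (adjusted p = 0.0273). Its controls read 6.74, 6.98 and 6.70 and its morphants 7.62, 7.51 and 7.57 at 10 somites. At 18 somites the controls read 6.27, 6.53 and 6.44 and the morphants 7.99, 8.35 and 7.76. Morphants were above controls throughout, and the gap was the wider at 18 somites. The call of h1-10 was lost without 4 of the 6 pairs (highest adjusted p = 0.125). The linker histone gene histh1l1 differed by 0.60, with effects of 0.12 and 0.72. The remaining rises at 18 somites were those of fbp1a, an enzyme of gluconeogenesis (0.73), ggctb, of glutathione breakdown (0.59), the pyrophosphatase gene ppa1a (0.57) and zgc:162730 (0.54), with effects at 10 somites between -0.20 and 0.03. Of these, fbp1a and ppa1a involved the tag range.

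Genes with a fall called at 18 somites alone had varied roles. The forkhead gene foxo3b read 9.41, 9.47 and 8.93 on control and 9.46, 9.47 and 9.34 on morphant arrays at 10 somites, followed at 18 somites by 8.42, 8.78 and 8.27 against 7.76, 7.84 and 7.68. The groups overlapped at 10 somites alone. Effects of 0.15 and -0.73 gave a stage difference of -0.88 ± 0.13 (adjusted p = 0.0139), while its other probe set gave -0.36 ± 0.14 (adjusted p = 0.33). The brain fatty acid binding protein gene fabp7a of radial glia gave effects of 0.14 and -0.74 and a stage difference of -0.88 ± 0.12 (adjusted p = 0.0103). All its values at 10 somites, between 5.29 and 5.69, lay in the tag range. It was the called gene among 20 measured genes of neural progenitors, whose median was 0.09.

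The remaining falls called at 18 somites alone had stage differences of -0.85 for taf1c, a subunit of the RNA polymerase I initiation factor, -0.75 for the cochaperone gene dnaja1, -0.68 for the otolith matrix gene otomp and -0.67 for the amino acid transporter gene slc1a4. They were -0.62 for the phosphatase gene ptp4a3a, -0.60 for the keratin gene krt1-19e, -0.58 for the splicing factor gene tra2a and -0.57 for the complement gene c6.2. The paired differences of ptp4a3a lay close to one another within a stage, 0.08, 0.05 and 0.01 at 10 somites and -0.58, -0.56 and -0.58 at 18 somites. The coactivator gene pprc1 fell at both stages, by 0.33 and by 0.91 (stage difference -0.59 ± 0.10, adjusted p = 0.034). The other probe set of krt1-19e, the brighter by mean, gave -0.13 (adjusted p = 0.658).

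**Figure D3:**
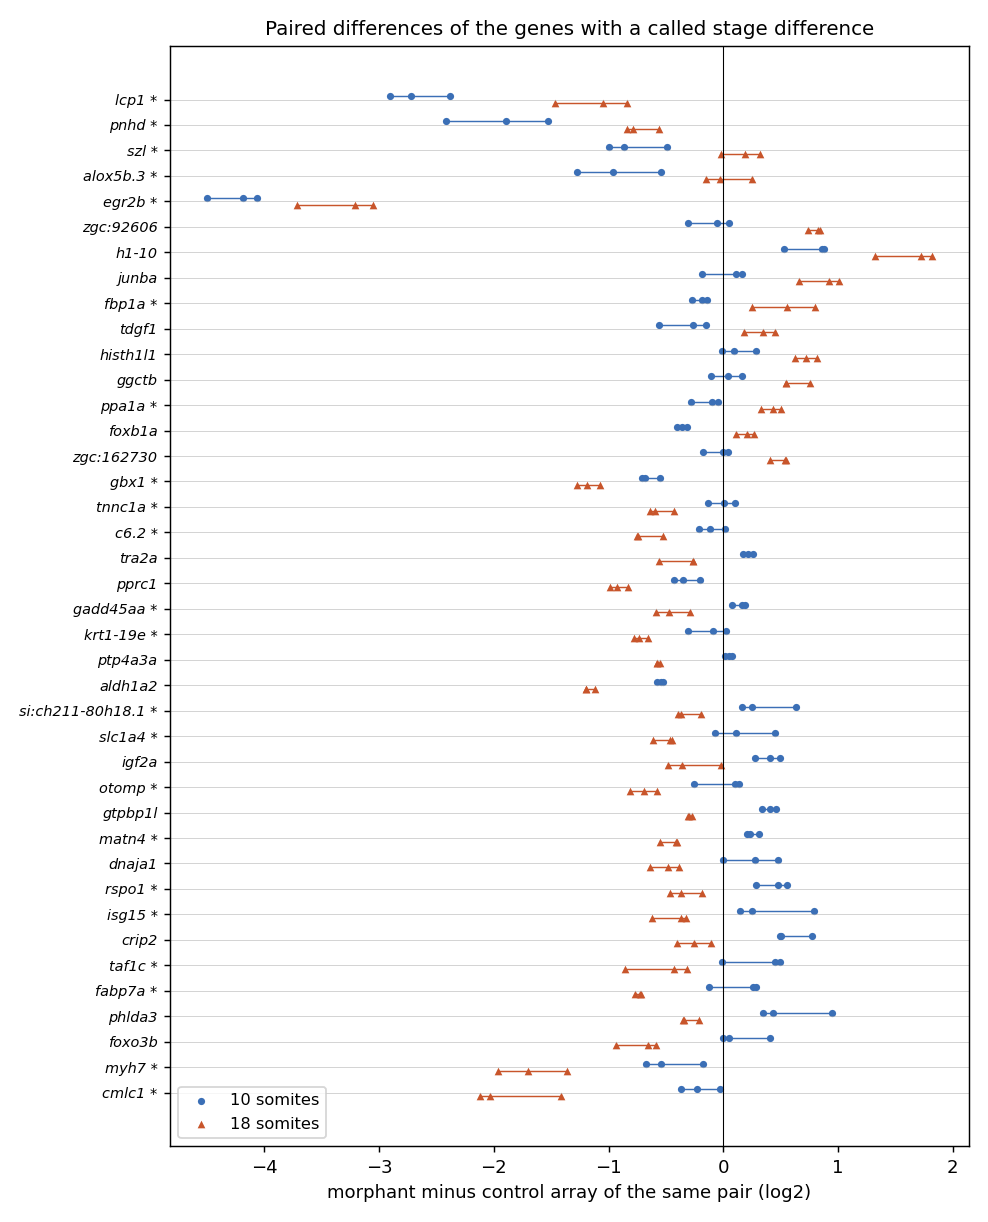
Paired differences, morphant minus control array of the same stage and number (log2), of the 40 named genes with a called stage difference, at 10 somites (blue circles) and 18 somites (orange triangles), with a line over the range of each 3. An asterisk marks genes with a group mean in the tag range, and in no gene do the ranges of the stages overlap.

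Of the 12 unnamed probe sets, 8 had a negative and 4 a positive stage difference. The lowest was Dr.21935.1.A1_at, which read 6.05, 5.94 and 6.12 on control and 6.80, 7.26 and 7.06 on morphant arrays at 10 somites, followed at 18 somites by 6.13, 6.21 and 6.03 against 6.1, 6.20 and 5.99. It was 2-fold higher in morphants at 10 somites and overlapped at 18 somites (stage difference -1.03 ± 0.13, adjusted p = 0.0103). The highest was Dr.2259.1.S1_at, above the tag range in all groups, with effects of 0.11 and 0.95 (stage difference 0.85 ± 0.13, adjusted p = 0.0186).

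Among other lists, the posterior Hox genes of paralogue groups 9 to 13, which pattern the trunk and tail, had the highest median, though without the pair numbered 2 at 18 somites the blood list was higher. It was 0.20, with 16 of 17 measured genes positive, against 4602 of 8793 named genes, and none was called. The effect rose for 4 of them at 10 somites and for 12 at 18 somites, and fell for none, while 677 and 1024 of all 8793 named genes rose at these stages. By pair, the list's median effect stood at 0.12, 0.09 and 0.06 at 10 somites and 0.32, 0.38 and 0.26 at 18 somites. The median stage difference was between 0.13 and 0.27 with a pair left out. The largest member difference was that of hoxb10a, with effects of 0.18 and 0.68 (0.49 ± 0.10, adjusted p = 0.0793), and hoxd9a rose at both stages, by 0.74 and 1.1 (0.35 ± 0.11, adjusted p = 0.211). The median of paralogue groups 1 to 3 was 0.08 over 9 genes, with effects falling for 6 at 10 somites and for 5 at 18 somites, against 626 and 806 of all named genes. Median stage differences were 0.14 over 21 genes of FGF signalling, 17 of them positive, and 0.13 over 17 genes of somite segmentation, 16 of them positive. Of all 8793 named genes, 4602 were positive. No member of these lists was called. The nearest was dusp4, a phosphatase that dampens MAP kinase signalling, with -0.39 and 0.24 (0.64 ± 0.13, adjusted p = 0.0705). Signs of the medians named in this paragraph and of those for contractile heart, fast muscle and heart field were the same under each of 3 other scalings of the arrays.

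General cell functions showed little stage difference. The median was 0.00 over 71 ribosomal protein genes and over 87 of the respiratory chain, -0.04 over 50 of the proteasome and 0.03 over 34 of the cell cycle, and none of their members was called. Of the cell cycle genes, 15 fell at 10 somites and 14 at 18 somites, against 626 and 806 of all 8793 named genes. Among 16 genes of the ATF4 and unfolded protein response none was called. The stress factor gene atf4a rose by 1.38 and 1.08 (stage difference -0.30 ± 0.09, adjusted p = 0.237). The endoplasmic reticulum chaperone gene hsp90b1 had 0.13 and 0.70 (0.57 ± 0.11, adjusted p = 0.0648).

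**Figure D4:**
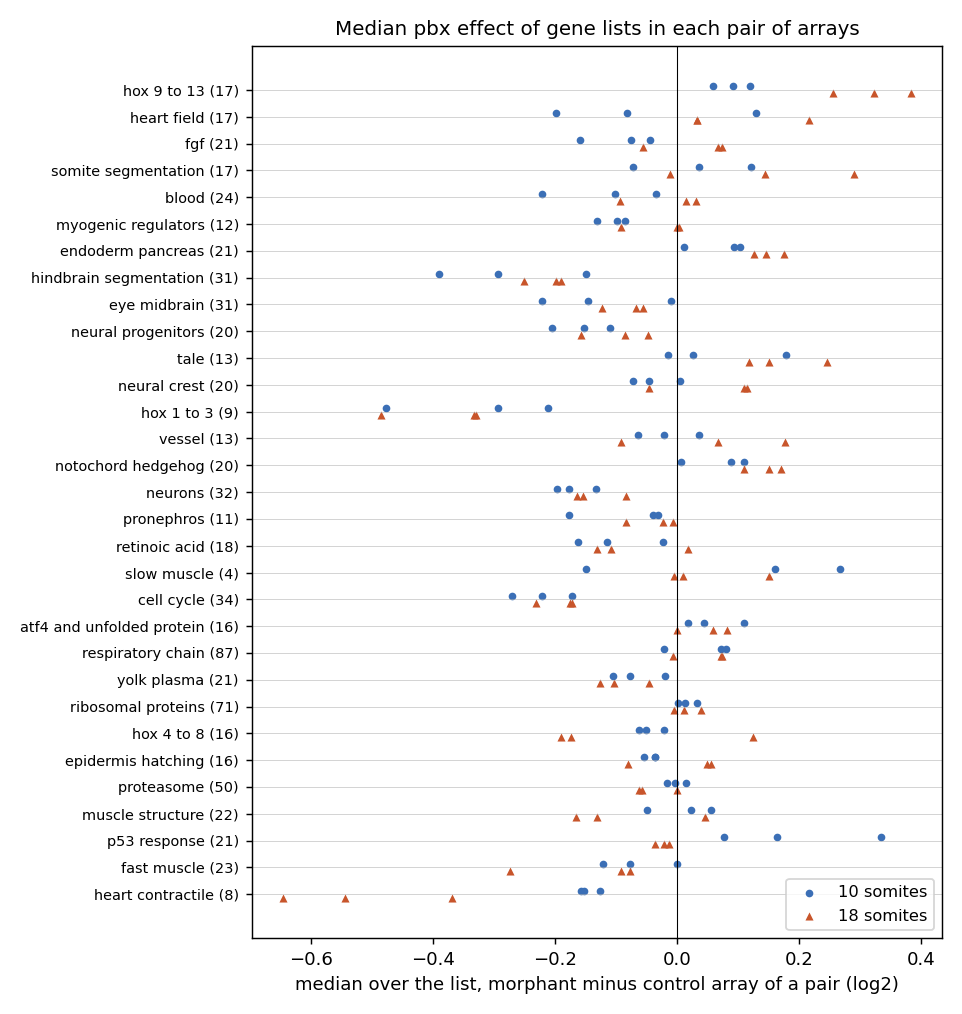
Median Pbx effect of each of 31 gene lists (number of measured genes in brackets) in each pair of arrays, morphant minus control on the log2 scale, at 10 somites (blue circles) and 18 somites (orange triangles), ordered by the median stage difference. The contractile heart list lies lowest at 18 somites, at -0.54, -0.65 and -0.37, and the posterior Hox list highest, at 0.32, 0.38 and 0.26.

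The transcripts targeted by the morpholinos gave no called stage difference. On control and morphant arrays pbx2 lay between 8.4 and 8.76 and between 10.24 and 10.33 at 10 somites, and between 8.0 and 8.23 and between 9.52 and 9.92 at 18 somites. Its rise was 1.75 at 10 somites and 1.63 at 18 somites (stage difference -0.12 ± 0.15, adjusted p = 0.826). For pbx4 the rise was 0.45 and 0.34 (-0.10 ± 0.11, adjusted p = 0.785). The sign of both differences turned without the pair numbered 3 at 18 somites (0.05 and 0.01). Since a morpholino can act without lowering the transcript, the knockdown cannot be checked from these levels. Other strong effects at both stages did not differ detectably: en2b of the midbrain boundary gave -0.96 and -1.28 (adjusted p = 0.438), mab21l1 of the eye field -0.96 and -1.59 (0.194), bhlhe22 of neurons -1.12 and -1.65 in the tag range (0.216), and the transporter gene slc16a3b 1.66 and 1.27 with its controls in the tag range (0.478). The stage difference of mab21l1 was -0.37 without the pair numbered 1 at 10 somites and passed without the pair numbered 3 there (-0.84, adjusted p = 0.0481).

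By likeness over the 6 paired differences, the named genes closest to cmlc1 were tnnc1a (Pearson r = 0.991), crip2 (0.987) and aldh1a2 (0.979), and those closest to lcp1 were zgc:92606 (0.960), histh1l1 (0.955) and fbp1a (0.921). All genes were read on the same arrays, and the 6 points fall into 3 from each stage. All these genes were chosen for a difference between the stages, so the values are a description.

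Calls of single genes depended on single pairs. Of the 40 named genes, cmlc1, lcp1 and zgc:92606 kept their call without each pair in turn. A call was lost for 4 genes without 1 of the pairs, for 10 without 2 to 4 of them, for 17 without 5 and for 6 without any 1 of the 6. Leaving out the pairs numbered 1, 2 and 3 ended the call of 25, 30 and 12 genes at 10 somites and of 35, 28 and 28 genes at 18 somites. The pair whose removal cost fewest calls was thus number 3 at 10 somites.

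**Figure D5:**
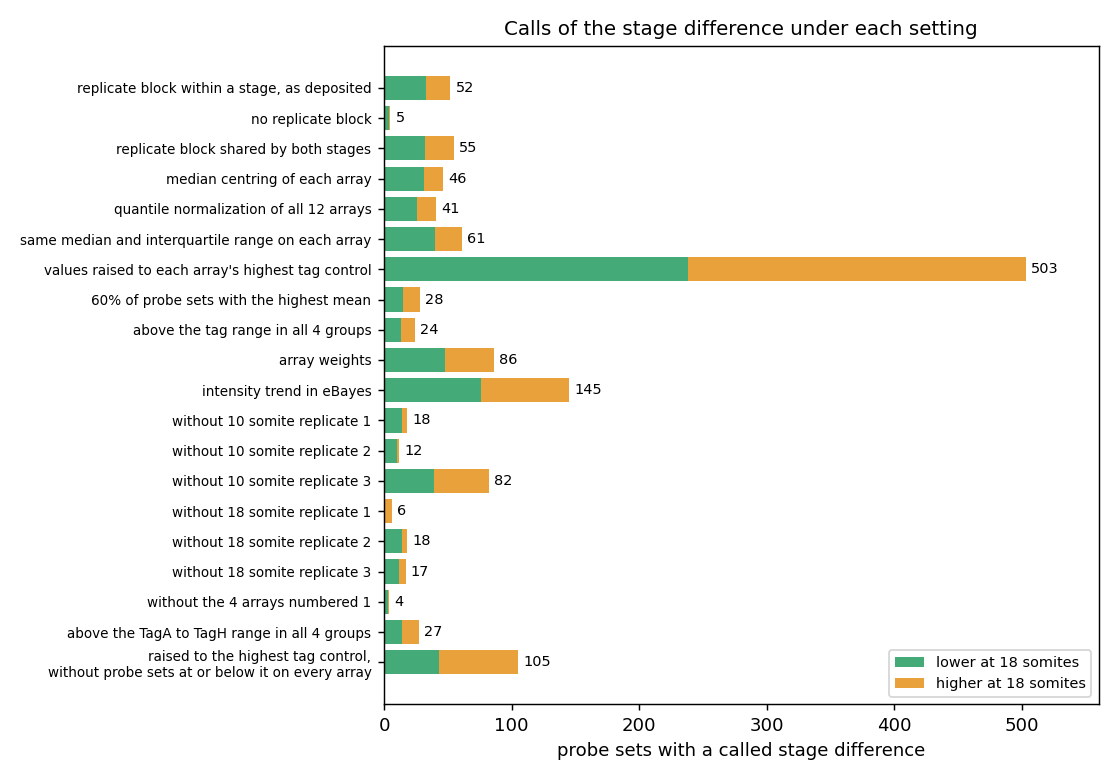
Number of probe sets with a called stage difference (horizontal axis) under the setting reported (top, 52) and under each of 19 other settings, split by direction into lower (green) and higher (orange) at 18 somites. Counts range from 4 without the arrays numbered 1 to 503 with values raised to the tag controls.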

How the data were processed

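RNA of whole zebrafish embryos was measured on 12 Affymetrix arrays. The values used are the authors' deposited log2 expression values per probe set, made with RMA in affy per the submitters' processing notes (versions not given in the sources used here). RMA subtracts background and scales arrays together, which can compress differences at low signals. The array medians differ between the stages, and no source used here says whether the stages were normalized together. The platform annotation gave 10795 tested probe sets 1 gene symbol, 135 several and 4572 none. In the gene lists and in counts over all named genes, a gene was represented by its brightest probe set by mean over the 12 arrays. A gene with a called stage difference was described by its called probe set.

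One linear model was fitted to all 15502 probe sets in limma 3.58.1 (R 4.3.3), with a term for each of the 6 pairs of control and morphant arrays that share stage and number, and a Pbx effect for each stage. It has 4 residual degrees of freedom and a prior of 8.42. Moderated p-values were adjusted by Benjamini-Hochberg, with a threshold of 0.05. The values go with pairing by number at 18 somites and for number 1 at 10 somites, and less clearly for numbers 2 and 3 at 10 somites. Deviations from group means correlated at 0.548, 0.214 and 0.246 between arrays of the same number at 10 somites, and at 0.408, 0.301 and 0.325 at 18 somites. The highest correlation between different numbers was 0.231, for the control array numbered 3 at 10 somites. Its own number gave 0.246, and the pair numbered 2 at that stage gave 0.214, which is lower than 0.231. For every other control array the highest correlation with a different number was negative. Such deviations cancel within a group, which lowers correlations between different numbers where that of the same number is positive. The code was tested on simulated data. The number of arrays limits the precision, and arrays give no count of reads.

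The genes named are the 12 called genes with the highest and the 12 with the lowest stage difference, called genes with opposite effects, a panel of 24 genes, called members of the gene lists, and the 3 genes most like cmlc1 and lcp1. Other called genes are named to account for all 40. The members and lists were chosen with earlier results of these data known. Alternatives covered the block, the scaling, the tag controls, filters on low signals, array weights, a trend of variance with intensity and each pair left out. No genome coordinates or sequences were used here.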

Additional observations from a re-analysis of the deposited data

Results flagged for a closer look

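A test of the difference between the Pbx effects at the 2 stages marked the count of 52 probe sets and each of the 40 named genes among them. No explanation was weighed. The stage differences are given as 18 minus 10 somites on the log2 scale.

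Among genes of heart, hindbrain and retinoic acid synthesis, the values were -1.64 for cmlc1, -1.21 for myh7, -0.55 for tnnc1a, 0.93 for egr2b, -0.53 for gbx1 and -0.63 for aldh1a2. Among genes with opposite effects at the stages, they were -0.84 for crip2 and isg15, -0.78 for rspo1, -0.70 for matn4, -0.69 for gtpbp1l, -0.68 for igf2a, -0.67 for si:ch211-80h18.1 and 0.65 for tdgf1. Other genes with the larger effect at 10 somites gave 1.55 for lcp1, 1.22 for pnhd, 0.95 for szl and alox5b.3, 0.55 for foxb1a and -0.88 for phlda3.

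A rise at both stages, larger at 18 somites, gave 0.87 for h1-10, and a fall at both stages, larger at 18 somites, gave -0.59 for pprc1. Rises called at 18 somites alone gave 0.90 for zgc:92606, 0.84 for junba, 0.73 for fbp1a, 0.60 for histh1l1, 0.59 for ggctb, 0.57 for ppa1a and 0.54 for zgc:162730. Falls called there alone gave -0.88 for foxo3b and fabp7a, -0.85 for taf1c, -0.75 for dnaja1, -0.68 for otomp, -0.67 for slc1a4, -0.62 for ptp4a3a, -0.60 for gadd45aa and krt1-19e, -0.58 for tra2a and -0.57 for c6.2.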

How the results depend on the processing

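The count of 52 called probe sets moved with the processing. It was 5 with no replicate block, 28 among the brightest 60% of probe sets by mean, 24 for those above the tag range in all 4 groups, 27 with the range of TagA to TagH, 86 with array weights, 145 with an intensity trend and 4 without the 4 arrays numbered 1. It was 503 (265 higher, 238 lower) with values raised to the tag controls and 105 when probe sets at or below them on every array were left out, the latter and the TagA to TagH range being chosen after seeing the data. In the fit with 503 calls, 5192 probe sets lay at or below the tag controls on every array, and none of these was called. Its prior degrees of freedom were infinite, against 8.42 in the main fit. Scaling and a block shared by both stages gave 41 to 61. With a pair left out it ranged from 6 to 82. The cause of these shifts was not tested, except that filters tested fewer probe sets.

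The count at 10 somites was 1267 with no replicate block, 697 without the arrays numbered 1 and 840 to 2219 with a pair left out. At 18 somites it was 1282 without those arrays and 1592 to 2871 with a pair left out. With no replicate block, cmlc1, crip2, rspo1 and zgc:92606 kept their call among the 40 named genes.

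Differences near 0 changed sign: hoxb1a to -0.04 and -0.02 without pair 1 at 10 and at 18 somites and to -0.14 without the arrays numbered 1, smyhc1 to -0.06 and -0.005 without pair 3 at 10 and at 18 somites, and pbx2 and pbx4 to 0.05 and 0.0087 without pair 3 at 18 somites. With a pair left out the ranges were -0.0372 to 0.2172 for hoxb1a, -0.0568 to 0.0912 for smyhc1, -0.2518 to 0.0502 for pbx2 and -0.1853 to 0.0087 for pbx4. Of genes not called, 8 gained 18 calls in all. Of 620 list medians recomputed, 40 moved by more than the spread. Of the 52 differences, 28 (53.8%) involved a signal in the tag range, against 43.5% of all probe sets tested. Such a signal can limit the size of a difference as read.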
